A study of Mus musculus with 40 samples.

Results

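The genes described are 9 of the 39056 in the deposited gene table: Ciita, Cd74, H2-Aa, H2-Ab1, H2-Eb1, H2-DMa, H2-DMb1, Ctss and Rfx5, chosen by name as the core of MHC class II presentation. Each has a row, and 8 of the 9 passed the filter on low counts. The 4 transcripts of Ciita and Cd74 among the 112588 in the isoform table were read as well. All 40 libraries were bulk RNA sequencing of cultured developing oligodendrocytes of wild-type C57BL/6 mice, differentiated for less than a day from progenitors immunopanned from cortices of pups aged 6 to 7 days. Cells received IFN-gamma, the interferon made by activated lymphocytes, at 200 U/ml for 1, 8, 24 or 48 h, or thapsigargin, which empties the calcium store of the endoplasmic reticulum, at 200 uM as labelled for 1 or 8 h, or were left untreated for 1, 8, 24 or 48 h. Each of these 10 groups held 4 libraries. The labels name whole brain as the tissue, and the growth protocol names cortices. The labels do not say whether the libraries of a group came from separate cultures or litters, so a p-value speaks only of the spread among these libraries. Part of that spread may be technical, though within the IFN-gamma groups the libraries also differed in Y-linked reads, as given below.

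MHC class II molecules carry peptides from endocytosed protein to the cell surface, where CD4+ T cells read them. An alpha and a beta chain (H2-Aa with H2-Ab1 for the I-A molecule, H2-Eb1 for the beta chain of I-E) assemble on the invariant chain, Cd74. The invariant chain is then cut in endosomes, with cathepsin S (Ctss) as the usual last protease in professional antigen-presenting cells, and the DM molecule (H2-DMa with H2-DMb1) exchanges the remaining fragment for peptide. Ciita is a coactivator that binds no DNA itself and is the limiting factor for class II transcription in most cells. It acts on a promoter module whose X box is bound by the RFX complex, of which Rfx5 is a subunit, and whose Y box is an inverted CCAAT bound by NF-Y. Oligodendrocytes are not counted among professional antigen-presenting cells.

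Promoter windows from 250 bases before to 50 after a start site were found for 6 of the 9 genes in RefSeq on GRCm38.p6: H2-Aa, H2-Eb1, H2-DMa, H2-DMb1, Ctss and Rfx5. Those of 3 class II chain genes called higher with IFN-gamma are shown: H2-Eb1 and H2-DMb1 hold the letters searched for both boxes of this module. In H2-Aa only those for the Y box were found, which does not show that its X box is missing, since 1 form of the letters was searched. A window of H2-DMa, also called higher, holds GATTGG too and is not shown. The 3 windows shown lie at chr17:34287774-34288073 on the minus strand for H2-Aa, chr17:34305617-34305916 on the plus strand for H2-Eb1, and chr17:34152941-34153240 on the plus strand for H2-DMb1. Capitals mark AACNNATG, letters of the X box type, and GATTGG, the inverted CCAAT, each searched on both strands.
H2-Aa: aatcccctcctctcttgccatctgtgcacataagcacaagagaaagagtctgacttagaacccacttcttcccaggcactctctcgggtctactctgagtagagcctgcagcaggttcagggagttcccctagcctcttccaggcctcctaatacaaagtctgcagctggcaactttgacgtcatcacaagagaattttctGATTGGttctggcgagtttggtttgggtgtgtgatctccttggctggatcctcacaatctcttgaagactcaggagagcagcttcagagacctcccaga
H2-Eb1: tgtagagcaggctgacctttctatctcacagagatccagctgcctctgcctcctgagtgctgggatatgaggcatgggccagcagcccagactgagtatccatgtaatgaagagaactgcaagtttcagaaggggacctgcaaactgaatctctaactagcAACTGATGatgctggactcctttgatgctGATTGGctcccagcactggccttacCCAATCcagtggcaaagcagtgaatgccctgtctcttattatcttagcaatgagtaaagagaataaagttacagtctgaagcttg
H2-DMb1: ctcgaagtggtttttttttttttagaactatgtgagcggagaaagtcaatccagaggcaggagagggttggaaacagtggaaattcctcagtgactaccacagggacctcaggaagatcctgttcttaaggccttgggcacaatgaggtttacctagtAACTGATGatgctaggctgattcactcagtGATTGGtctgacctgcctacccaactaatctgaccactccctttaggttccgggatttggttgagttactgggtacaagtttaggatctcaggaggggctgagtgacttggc
In the H2-Eb1 window AACNNATG began 89 bases and GATTGG 60 bases before the start, with a second CCAAT copy read from the other strand. In the H2-DMb1 window the distances were 92 and 62 bases. The H2-Aa window held GATTGG 49 bases before the start and no AACNNATG. The Rfx5 window (chr3:94953858-94954157) held GATTGG in 2 places on the other strand, 1 of 2 H2-DMa windows held it once, and the Ctss window (chr3:95526536-95526835) held AACNNATG once, 207 bases before the start, and GAAANNGAA, letters of an interferon response element, 21 bases before it. Of all 32851 windows, 8.86% held AACNNATG, 16.11% GATTGG and 8.56% GAAANNGAA. Both of the first letters on the strand of the gene, with 20 to 40 bases between their first bases, were found in 17 windows (0.0517%). Among them were those of H2-Eb1, H2-DMb1, H2-DMb2, H2-Eb2 and H2-Ob, while most belonged to other genes, such as Dnah6, Dpm1, Icosl and Scgb2b20. These letters and this spacing were chosen after the windows were read, and a match is a description, not a bound site.

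Libraries held 13165483 to 22651092 reads on genes, and 15135 genes were tested. Levels are given as CPM, read counts scaled to TMM-adjusted library totals. Fold changes are edgeR quasi-likelihood fits with standard errors (SE), and genes with an adjusted p (Benjamini-Hochberg, over all 15135) under 0.05 are called. The SE is derived from the F statistic, and against groups of few reads it may not cover the full counting error. The 12 oligodendrocyte lineage markers summed to between 3016 and 20578 CPM in every library. In 3 libraries, IFN-gamma 1 h replicate 3, IFN-gamma 48 h replicate 2 and untreated 24 h replicate 4, the single gene row Gm10800 held 1.31, 1.41 and 2.64% of reads, and these had the most genes with a read of all 40, from 29190 to 31854, where the lowest of the 40 had 18070. Without these 3 libraries every call on the 9 genes described here was the same. In IFN-gamma 1 h replicate 2, rows that resemble ribosomal RNA held 28.3% of reads. Only H2-Ab1, H2-DMa and Rfx5 pass the filter without the IFN-gamma libraries, so the other 5 tested genes were bound to differ somewhere, and counts over the 8 describe them and support nothing.

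At 1 h of IFN-gamma none of the 8 tested genes was called by edgeR or DESeq2, and none had an unadjusted p under 0.05, where 1.29% of all genes were called. At 8 h all 8 were higher with IFN-gamma than without (13.1% of all genes were called higher). At 24 h 7 of 8 were higher (12.6% of all genes), and at 48 h the same 7 (16.9% of all genes). Rfx5 was the exception at both later times. No member was called lower at any of these times. At 24 h the median log2 fold change of the 8 was 6.49, against -0.007 over all genes.

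Ciita was almost silent before it was induced. In IFN-gamma cells of 8 h it measured 40.4, 41.1, 40.0 and 45.0 CPM, in those of 24 h 54.2, 57.9, 66.8 and 57.8 CPM, and in those of 48 h 62.5, 36.7, 39.5 and 53.6 CPM. In untreated cells it had 0 to 5 reads in a library, except for 15 reads (0.636 CPM) in untreated 24 h replicate 4. In IFN-gamma cells of 1 h it had 2, 0, 18 and 0 reads, and the 18 reads were in replicate 3, another of the 3 libraries named above. Every IFN-gamma library from 8 h on lay above every untreated library. The log2 fold change was 9.35 ± 0.49 (SE) at 8 h, 8.15 ± 0.40 at 24 h and 8.36 ± 0.43 at 48 h, with edgeR adjusted p of 9.457e-18, 1.47e-18 and 6.046e-18. The untreated groups behind these folds held only 4, 16 and 10 reads, so the SE may be too small for the size of the folds.

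**Figure D1:**
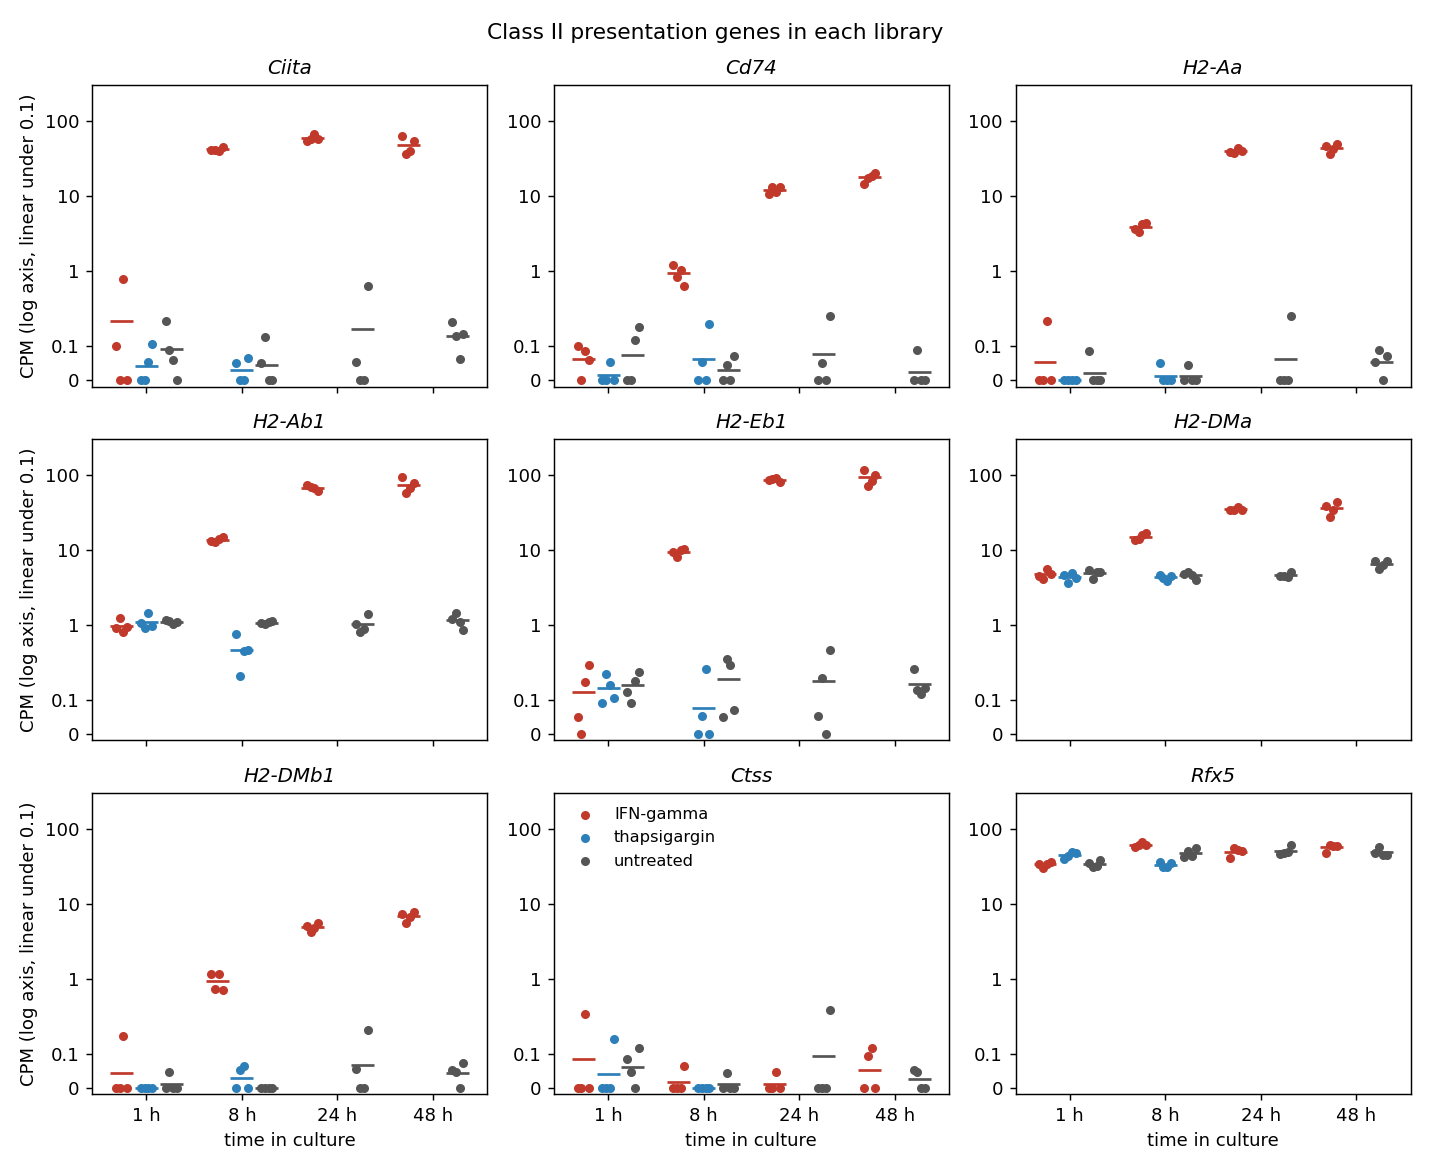
CPM of each of the 9 genes (one panel each) in every library, by time (x axis), with IFN-gamma red, thapsigargin blue and untreated grey, points for libraries and bars for group means. The y axis is logarithmic above 0.1 CPM and linear below. Without IFN-gamma Ciita, Cd74, H2-Aa, H2-Eb1 and H2-DMb1 stay under 1 CPM, H2-Ab1 lies near 1 CPM except after 8 h of thapsigargin, and H2-DMa averages 4.29 to 6.51 CPM; Ctss stays under 0.4 CPM in every library, and Rfx5 stays between 30.3 and 65.8 CPM.

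The chains of the I-A molecule were still far from their later level at 8 h. H2-Aa, the alpha chain, measured 3.67, 3.37, 4.19 and 4.37 CPM at 8 h of IFN-gamma, 38.3, 37.8, 43.7 and 39.1 CPM at 24 h, and 45.8, 36.4, 41.8 and 48.5 CPM at 48 h. Untreated cells had 1, 6 and 4 reads of H2-Aa in all at those times, and the 6 were all in untreated 24 h replicate 4. H2-Aa at 8 h was 272-fold higher by the ratio of summed reads (exact 95% counting interval 48.5 to 10795), an interval that covers counting error only. At 24 h the fitted log2 fold change was 8.91 ± 0.36 (edgeR adjusted p 5.105e-20) and at 48 h 9.43 ± 0.38 (4.513e-20).

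H2-Ab1, the beta chain of the same molecule, had reads in every untreated library. It averaged 0.982 ± 0.187, 13.6 ± 0.94, 66.8 ± 4.9 and 73 ± 15.1 CPM (SD, n = 4) at 1, 8, 24 and 48 h of IFN-gamma, against 1.10 ± 0.063, 1.08 ± 0.054, 1.03 ± 0.26 and 1.16 ± 0.24 CPM in untreated cells of those times. The single libraries of H2-Ab1 were 12.9, 12.8, 13.8 and 14.8 CPM at 8 h of IFN-gamma, 72.3, 68.3, 66.1 and 60.5 CPM at 24 h, and 92.2, 57.2, 65.9 and 76.8 CPM at 48 h. No untreated library passed 1.45 CPM, so the groups did not overlap from 8 h on. The log2 fold change was 3.65 ± 0.17 at 8 h, 5.99 ± 0.16 at 24 h and 5.94 ± 0.16 at 48 h (edgeR adjusted p 2.652e-19, 4.071e-26 and 4.006e-26). Since H2-Ab1 rests on 75 to 87 reads in each untreated group, its folds have the smallest SE of the I-A and I-E chains.

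H2-Eb1, the I-E beta chain, had more reads than any other of the 9 genes at 24 and at 48 h of IFN-gamma. It measured 9.37, 8.03, 10.03 and 10.21 CPM at 8 h of IFN-gamma, 84.6, 87.7, 89.4 and 80.8 CPM at 24 h, and 115, 71.4, 82.6 and 100 CPM at 48 h. The untreated libraries held 0 to 11 reads of H2-Eb1, at most 0.466 CPM. The log2 fold change was 5.51 ± 0.34, 8.68 ± 0.30 and 9.04 ± 0.31 at 8, 24 and 48 h (edgeR adjusted p 1.079e-15, 2.413e-23 and 2.104e-23). Its I-E partner is a pseudogene in this strain, H2-Ea-ps, which had 1, 2 and 4 reads in all at 8, 24 and 48 h of IFN-gamma, against 1, 5 and 0 in untreated cells.

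Cd74, the invariant chain, was barely detected at 8 h and rose to its level afterwards. It measured 1.22, 0.842, 1.05 and 0.642 CPM at 8 h of IFN-gamma, 10.6, 13.1, 11.3 and 13.3 CPM at 24 h, and 14.4, 17.4, 18.4 and 20.5 CPM at 48 h. Untreated cells held 2, 7 and 2 reads of Cd74 in all at 8, 24 and 48 h, 6 of the 7 in untreated 24 h replicate 4. The ratio of summed reads was 33.1 at 8 h (exact 95% counting interval 8.81 to 279.5) and 622 at 48 h (172 to 5140), and the fitted log2 fold change at 24 h was 7.00 ± 0.42 (edgeR adjusted p 3.375e-16). Every IFN-gamma library of 48 h lay above every one of 24 h, but this step of Cd74, 0.54 ± 0.23 on the log2 scale, was not called by edgeR (adjusted p 0.111). DESeq2 called it, as did edgeR without IFN-gamma 48 h replicate 1.

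The chains of DM, the peptide exchanger, rose by unequal amounts. H2-DMa was present at 4.59 to 6.51 CPM on average in the untreated groups and averaged 14.9 ± 1.6, 34.9 ± 1.8 and 35.5 ± 6.8 CPM (SD, n = 4) at 8, 24 and 48 h of IFN-gamma. Its log2 fold change was 1.69 ± 0.12, 2.92 ± 0.12 and 2.45 ± 0.12, with edgeR adjusted p of 1.167e-13, 8.158e-21 and 7.141e-19. H2-DMb1 averaged 0.94 ± 0.256, 4.84 ± 0.539 and 6.77 ± 1.004 CPM at the same times of IFN-gamma, against 0, 6 and 3 reads in all in untreated cells. H2-DMb1 was at least 22.1-fold higher at 8 h, taking 3 reads in the whole untreated group as a floor, and 159-fold higher at 48 h by summed reads (exact 95% counting interval 54.2 to 776). H2-DMb1 has a close copy, H2-DMb2, which had 6 reads in all at 24 h of IFN-gamma against 4 in untreated cells, and how reads common to both were counted is not given in the sources used here.

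Ctss, the protease, did not follow the others. It had 34 reads in all over the 40 libraries and was not tested. It had 8, 1, 1 and 4 reads in all at 1, 8, 24 and 48 h of IFN-gamma, against 5, 1, 9 and 2 in untreated cells. All 8 of the first were in IFN-gamma 1 h replicate 3, and all 9 at untreated 24 h were in replicate 4. A difference in Ctss was not detectable at this depth. Without a filter edgeR gave it an adjusted p of 0.345 to 1 against untreated cells at the 4 times.

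Rfx5, which is expressed without a stimulus, moved little. It measured 57, 60.5, 65.8 and 60.3 CPM at 8 h of IFN-gamma, against 42.1, 50.2, 42.9 and 55.2 CPM in untreated cells of 8 h, groups that did not overlap. The log2 fold change was 0.36 ± 0.11 (edgeR adjusted p 0.0104). It lost its call in the lower 20 library numbers alone (adjusted p 0.192) and in the upper 20 alone (0.0746). The call was also lost in the 30 libraries with a Y-linked level of 50 CPM or more (0.0515). That setting left out treated libraries only, since every untreated library had a Y-linked level of at least 144 CPM. The lowest Y-linked levels were 0.656 to 1.15 CPM in the IFN-gamma groups, and 29.6 and 25 CPM with thapsigargin at 1 and 8 h. At 24 h Rfx5 averaged 49.3 ± 6.3 CPM with IFN-gamma and 50.2 ± 6.6 CPM without (log2 fold change -0.03 ± 0.10), and at 48 h 56.4 ± 5.8 and 48.2 ± 5.9 CPM (0.22 ± 0.11, adjusted p 0.0966).

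**Figure D2:**
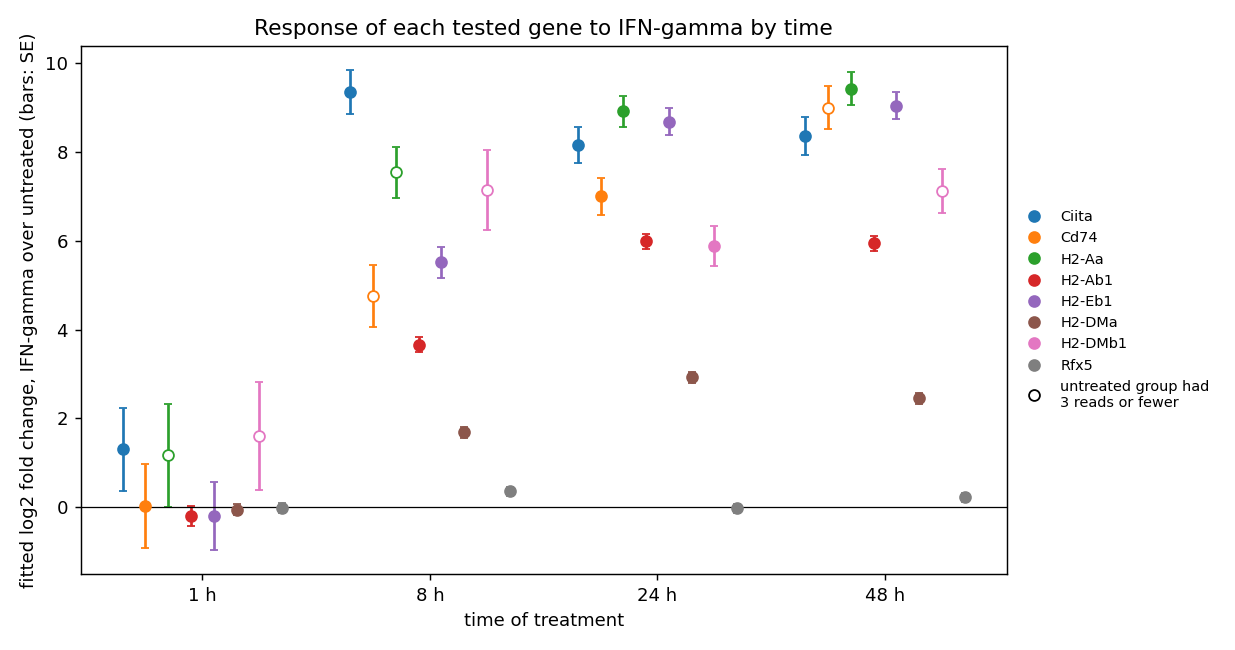
Fitted log2 fold change of IFN-gamma over untreated cells (y axis, bars are SE, n = 4 libraries a group) for the 8 tested genes at each time (x axis); open points mark folds against a group of 3 reads or fewer, which depend on the prior count. These are folds of the gene table: none was called at 1 h, Ciita stands at 9.35 at 8 h, and Rfx5 stays between -0.03 and 0.36. Bars of genes with few untreated reads may not cover the full counting error.

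Ciita and the class II chain genes, Cd74 among them, differed in when they reached their level. At 8 h of IFN-gamma Ciita stood at 86.6% of its mean CPM at 48 h and at 70.4% of that at 24 h, where its mean was higher. The share of the 48 h mean was 5.31% for Cd74, 9.04% for H2-Aa, 10.2% for H2-Eb1, 13.9% for H2-DMb1, 18.6% for H2-Ab1 and 42.1% for H2-DMa. Against the 24 h mean these 6 genes stood at 7.75 to 42.8%. Compared with 8 h of IFN-gamma, 6 of the 8 tested genes were higher at 24 h, where 4.38% of all genes were called higher. The log2 steps of the called genes were 3.67 ± 0.30 for Cd74, 3.35 ± 0.22 for H2-Aa, 3.19 ± 0.19 for H2-Eb1, 2.35 ± 0.31 for H2-DMb1, 2.30 ± 0.13 for H2-Ab1 and 1.22 ± 0.11 for H2-DMa. Ciita rose by a smaller step that was not called (0.51 ± 0.23, edgeR adjusted p 0.185), although its 4 libraries of 24 h lay above those of 8 h.

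**Figure D3:**
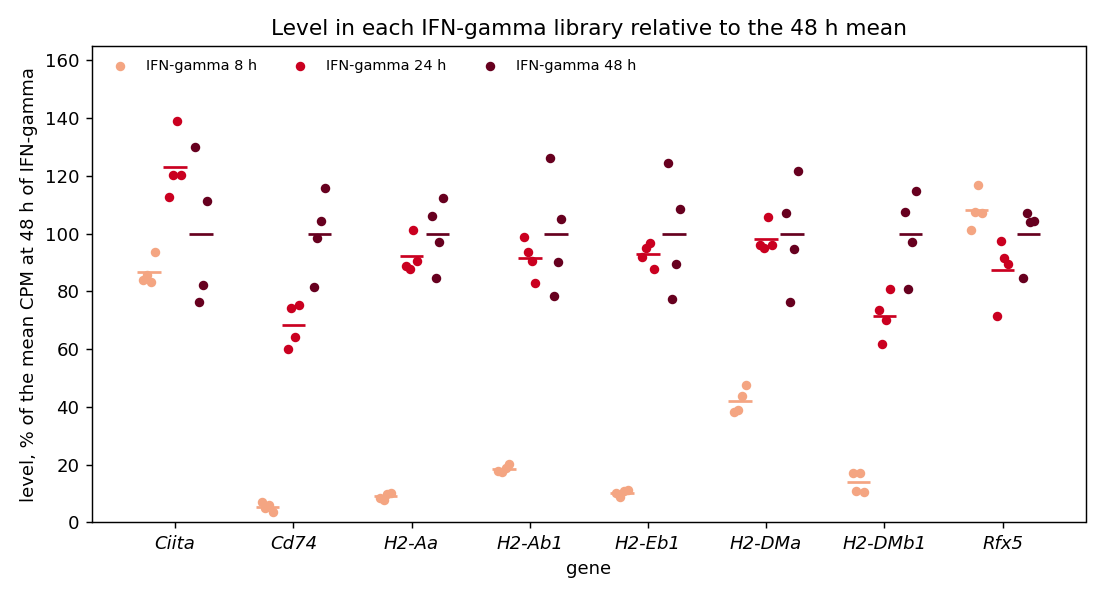
Level of each tested gene (x axis) in each IFN-gamma library, as a percentage of that gene's mean CPM at 48 h (y axis), for 8, 24 and 48 h; points are libraries and bars are means. Ciita already stands at 86.6% at 8 h, where Cd74 stands at 5.31% and H2-Aa at 9.04%; its 24 h libraries lie higher, and against their mean it stands at 70.4%.

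Set against Ciita library by library, each of the 6 chain genes gained between 8 and 24 h. The log2 ratio of H2-Aa to Ciita was -0.57 ± 0.053 at 24 h and -3.42 ± 0.15 at 8 h of IFN-gamma (SD, n = 4), a difference of 2.85. The difference was 3.22 for Cd74, 2.69 for H2-Eb1, 1.90 for H2-DMb1, 1.79 for H2-Ab1 and 0.72 for H2-DMa, and it was -0.82 for Rfx5. For each of these 7 ratios the groups did not overlap, and the exact two-sided permutation test gave p = 0.0286, the smallest that 4 libraries against 4 allow. These ratios were taken after the levels had been seen and share their Ciita values, so the p-values describe this separation and support nothing further. The share of all genes whose ratio to Ciita separates in this way was not computed.

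Compared with 24 h, no tested gene was called at 48 h of IFN-gamma (14.0% of all genes were called), and Cd74 alone had an unadjusted p under 0.05. Compared with 1 h of IFN-gamma, all 8 were higher at 8 h (17.6% of all genes). Untreated cells also changed in culture: H2-DMa and Rfx5 were higher at 48 h than at 1 h, by 0.40 ± 0.13 and 0.51 ± 0.11 on the log2 scale, and 31.9% of all genes were. The H2-DMa step lost its call in either range of 20 library numbers alone. The effect of IFN-gamma itself, treated against untreated, was larger at 8 h than at 1 h for 5 of the 8 genes (7.39% of all genes). H2-Ab1 (3.85 ± 0.29) and H2-DMa (1.74 ± 0.18) were the ones of these with enough untreated reads to give a firm size. The call for Ciita was lost without untreated 1 h replicate 1 (edgeR adjusted p 0.0707), and that for Cd74 when untreated 1 h replicate 3 (0.103), untreated 1 h replicate 4 (0.222) or untreated 8 h replicate 1 (0.0509) was left out. It was larger at 24 h than at 8 h for 3, H2-Ab1 (2.33 ± 0.26), H2-Eb1 (3.17 ± 0.77) and H2-DMa (1.24 ± 0.17), where 0.634% of all genes were. That of H2-Eb1 was lost when untreated 8 h replicate 2 (adjusted p 0.257), untreated 8 h replicate 3 (0.111) or untreated 24 h replicate 1 (0.0523) was left out. It differed between 48 and 24 h for 0 of 8 by edgeR and by DESeq2 (1.68% of all genes), with 1 unadjusted p under 0.05, that of H2-DMa, which was called without untreated 48 h replicate 2.

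Levels of different genes can be set side by side only per length. Estimated reads of the isoform table divided by transcript length, scaled to the same total in each library, put H2-Eb1 first at 24 h of IFN-gamma, at 134 ± 8.5 (SD, n = 4). H2-Ab1 followed at 102 ± 8.1, H2-Aa at 65.5 ± 4.2, H2-DMa at 39.8 ± 1.9 and Rfx5 at 33.8 ± 5.7. Ciita stood at 18.6 ± 1.7, Cd74 at 17.1 ± 2.4 and H2-DMb1 at 7.04 ± 0.53, and Ctss at 0.0301 ± 0.0602. H2-DMa overlapped Rfx5 in this order, and Ciita overlapped Cd74, while the other neighbours did not overlap. At 48 h Cd74 stood at 25.8 ± 4.1, above Ciita at 15.5 ± 3.6 without overlap, and the ranges of H2-Eb1 and H2-Ab1 overlapped. On this scale Cd74 was below H2-Aa, H2-Ab1 and H2-Eb1 in every library of both times.

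The isoform table lists 1 transcript of Ciita, of 6007 bases, so the use of its alternative promoters was not analysed here. Cd74 has 3, of 1224, 1410 and 1345 bases in GENCODE M21. The first 2 carried the estimated reads of every 24 and 48 h IFN-gamma library. At 8 h, with only 77.2 estimated Cd74 reads over the 4 libraries, the 1224-base transcript held 57.9, 37.2, 52.6 and 29.4% of them, and the 1345-base transcript took 7.85 estimated reads in replicate 4. The 1224-base transcript held 52.9, 59.9, 45.4 and 50.7% at 24 h and 71.9, 47.3, 63.4 and 55.4% at 48 h. Its mean share was 44.3 ± 13.3% at 8 h, 52.2 ± 6.0% at 24 h and 59.5 ± 10.6% at 48 h (SD, n = 4). The libraries of the 3 times overlapped, and no pair of times passed the exact two-sided permutation test (p = 0.143 for 48 against 8 h and 0.286 for both other pairs, 0.286 for each after adjustment over the 3), where the smallest p allowed is 0.0286. In the transcript fit, the 1224-base and 1410-base transcripts were each higher than in untreated cells at 24 h (edgeR adjusted p 3.301e-05 and 0.00218) and at 48 h (3.505e-06 and 0.000139), where 3.97 and 7.97% of transcripts were called. At 8 h, where 5.25% were called, the Ciita transcript was higher (5.117e-15) and neither Cd74 transcript was called.

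**Figure D4:**
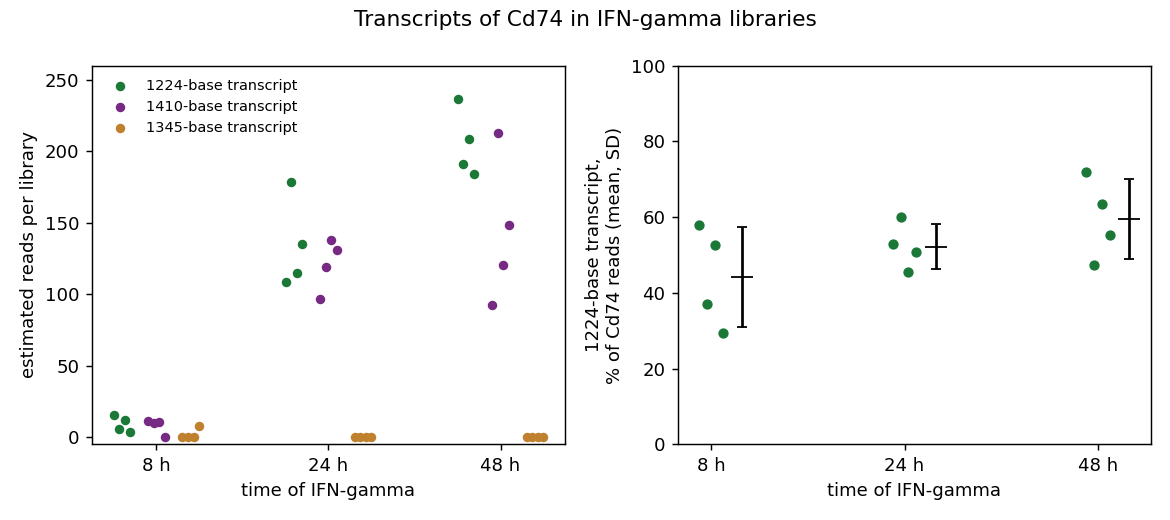
Left, estimated reads of the 3 Cd74 transcripts in each IFN-gamma library at 8, 24 and 48 h (x axis). Right, the 1224-base transcript as a percentage of estimated Cd74 reads, points for libraries with mean and SD beside them (n = 4); the means are 44.3, 52.2 and 59.5%, and the libraries of the 3 times overlap.

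The isoform table gave more to these genes in untreated cells than the gene table did. Ciita had 112, 153 and 124 estimated reads in all at 8, 24 and 48 h in untreated cells, against 4, 16 and 10 counted reads, and Cd74 had 14.0, 28.7 and 13.7 against 2, 7 and 2. The same held at 1 h of IFN-gamma, with 162 estimated against 20 counted reads of Ciita, and with thapsigargin, with 51 and 147 estimated reads of Ciita at 1 and 8 h against 3 and 2 counted. In IFN-gamma cells of 8 h and later the tables lay closer, at 5137 and 4758 reads for Ciita at 24 h. The log2 fold change of the Ciita transcript was 4.82 ± 0.28 at 8 h, against 9.35 for the gene. By estimated reads at 8 h, H2-Eb1 had 670 with IFN-gamma against 14 without, a wider ratio than that of Ciita with 3173 against 112, so the order of the folds at 8 h also depends on the table. The size of the Ciita and Cd74 folds depends on the table. H2-Ab1 had 78 estimated and 75 counted reads in untreated cells of 8 h.

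Of the 8 tested genes, 1 was called higher with thapsigargin and 2 lower. At 1 h Rfx5 was the 1 gene of 8 called, higher in thapsigargin cells at 39.4, 42.6, 49.4 and 47.3 CPM against 34.8, 30.5, 31.3 and 38.6 CPM in untreated cells (log2 fold change 0.40 ± 0.11, edgeR adjusted p 0.0122, 6.61% of all genes higher). That call was lost, at an adjusted p of 0.0579 to 0.0717, without thapsigargin 1 h replicate 3 or 4 or without untreated 1 h replicate 2 or 3. At 8 h 2 of 8 were lower (31% of all genes were). H2-Ab1 had 0.758, 0.213, 0.451 and 0.459 CPM in thapsigargin cells against 1.05, 1.02, 1.11 and 1.14 CPM in untreated cells (-1.16 ± 0.27, edgeR adjusted p 0.000371, and 0.0593 in the lower 20 library numbers alone). Rfx5 had 35.4, 30.6, 31.2 and 34.8 CPM against 42.1, 50.2, 42.9 and 55.2 CPM (-0.53 ± 0.11, adjusted p 5.963e-05). Ciita, Cd74, H2-Aa, H2-DMb1 and Ctss had at most 4 reads of the gene table in any thapsigargin group. At 8 h all 8 tested genes were higher with IFN-gamma than with thapsigargin (31.5% of all genes), H2-Ab1 by 4.82 ± 0.19, H2-DMa by 1.79 ± 0.12 and Rfx5 by 0.88 ± 0.11 on the log2 scale.

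The 10 genes listed for the control of Ciita by IFN-gamma hold carriers of the signal and also Socs1 and Nlrc5. Some were already called at 1 h, when Ciita was not. Of the 10 listed 6 were higher at 1 h of IFN-gamma, 8 higher and 2 lower at 8 h, and 8 higher and 1 lower at 24 and at 48 h. Of all genes 1.08, 13.1, 12.6 and 16.9% were called higher at 1, 8, 24 and 48 h, and 12.1, 10.5 and 19.9% lower at the 3 later times. The median log2 fold changes of the 10 were 0.26, 1.13, 0.92 and 0.83. Irf1, a transcription factor that binds the inducible Ciita promoter, averaged 632 ± 182 CPM at 1 h of IFN-gamma, against 25.5 ± 1.2 CPM in untreated cells (log2 fold change 4.63 ± 0.13, edgeR adjusted p 1.705e-24). Among the changes called at 24 h were those in Socs1, the feedback inhibitor of JAK kinases (7.69 ± 0.37 on the log2 scale), Nlrc5, the class I counterpart of Ciita (7.41 ± 0.30), and Irf1 (5.23 ± 0.13). Ifngr2, a receptor chain, was lower at 8, 24 and 48 h, by -0.24 ± 0.087, -0.51 ± 0.087 and -0.40 ± 0.089.

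Of 6 DNA-bound factors of the class II promoter, Nfyb, a subunit of NF-Y, was higher at 8, 24 and 48 h of IFN-gamma (0.37 ± 0.084, 0.35 ± 0.084 and 0.34 ± 0.084), Nfya at 24 h (0.39 ± 0.10), and Rfxank, another RFX subunit, was lower at 48 h (-0.30 ± 0.088). The medians of the 6 were 0.04, 0.08 and -0.01. With thapsigargin all 6 were called at 8 h, where 60.6% of all genes were called in either direction. Of the 6, 4 were higher, Rfxank the most (0.59 ± 0.0885), where 29.6% of all genes were. The 2 lower were Nfya and Nfyc (-0.27 ± 0.10 and -0.23 ± 0.059), where 31% of all genes were lower. Of 8 tested lysosomal genes, Sppl2a, the protease that cuts the last membrane piece of Cd74, was higher at 8 and 24 h (0.56 ± 0.062 and 0.21 ± 0.062), Lgmn, an asparaginyl endopeptidase, was higher at 8 h (0.48 ± 0.16), and Ifi30, the lysosomal thiol reductase, was lower at 8 h (-0.95 ± 0.20). Ctsd was lower at 24 h (-0.31 ± 0.081). At 48 h 5 were lower, where 19.9% of all genes were: Lgmn, Ctsb, Ctsd, Ctsl and Ctsz, the last 4 cathepsins, by -0.38 to -0.91. Of the 12 oligodendrocyte lineage markers 6 were called lower and 2 higher at that time, where 19.9 and 16.9% of all genes were. Their sum was 6790 to 10689 CPM in IFN-gamma libraries, against 11008 to 20578 CPM in untreated ones. The part of this in the lysosomal values was not tested.

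Of 8 genes of class II turnover and co-stimulation 5 were tested, and the co-stimulation genes Cd80, Cd86 and Cd40 were the 3 that were not. Their means stayed at or below 0.113 CPM at 8, 24 and 48 h of IFN-gamma. Icam1, an adhesion molecule, was higher from 1 h on (3.49 ± 0.44 at 1 h and 4.70 ± 0.45 at 24 h). March1, the ubiquitin ligase that removes class II from the surface in dendritic and B cells, was higher at 24 and 48 h (1.41 ± 0.29 and 2.48 ± 0.31). Its relative March8 was lower, by -0.91 ± 0.22 and -1.60 ± 0.22, and Icosl, a ligand of T cells, was higher (1.12 ± 0.30 and 1.75 ± 0.35). At 8 h of thapsigargin March1 was higher (1.49 ± 0.30) and Icosl lower (-3.42 ± 0.50). The 5 other class II chain genes, H2-Ea-ps, H2-Eb2, H2-DMb2, H2-Oa and H2-Ob, did not pass the filter. H2-Eb2 had 18 and 25 reads in all at 24 and 48 h of IFN-gamma, against 9 and 7 in untreated cells.

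**Figure D5:**
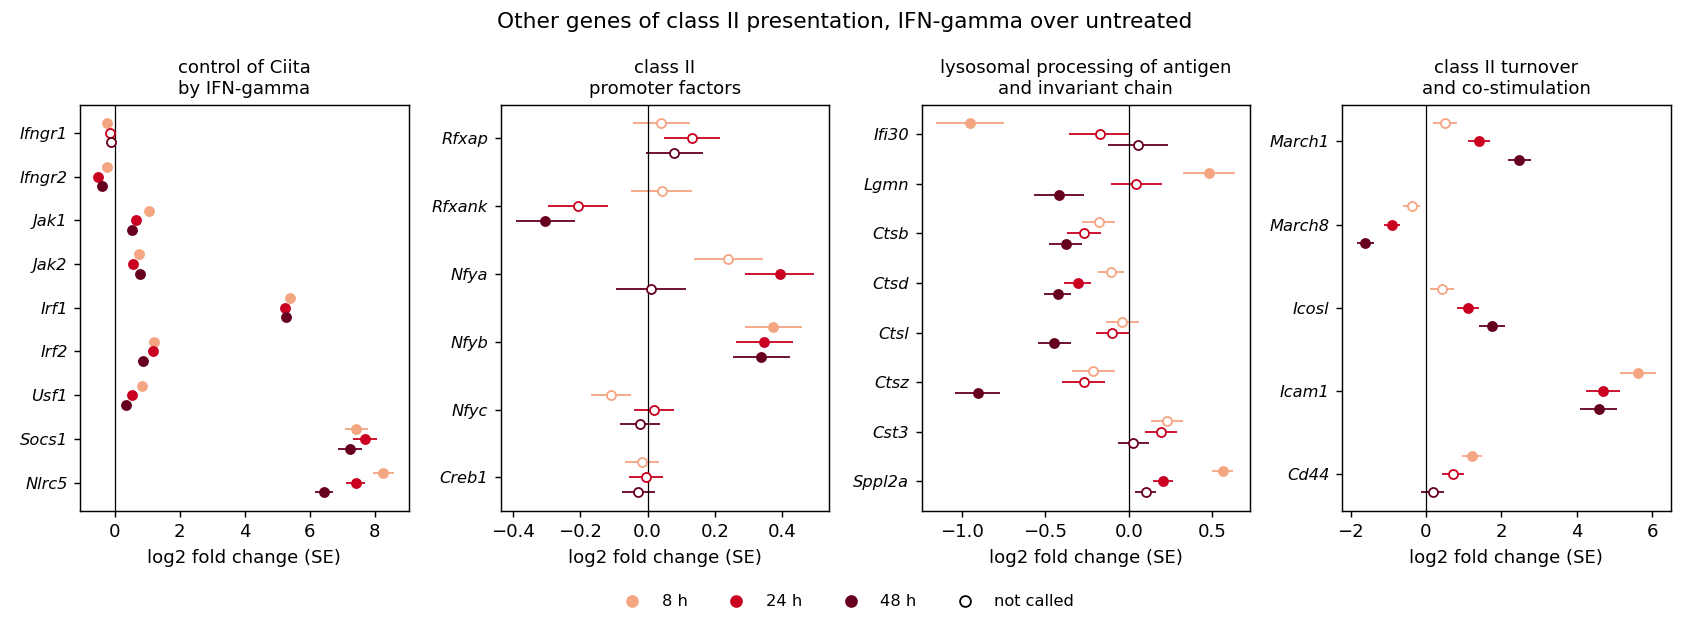
Log2 fold change of IFN-gamma over untreated cells (x axis, bars are SE) at 8, 24 and 48 h for tested genes of 4 lists, not all of which are drawn; filled points were called at an adjusted p under 0.05 and open points were not. Socs1, Nlrc5 and Irf1 lie above 5 at each time, and the promoter factors stay between -0.30 and 0.39 where called.

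Since other cells of the brain can carry class II, their markers were read beside these results. In bulk libraries fewer cells of a type and less RNA per cell cannot be told apart. The 18 microglia and macrophage markers summed to 28.6 to 32.1, 31.5 to 34.6 and 29.3 to 32.5 CPM in libraries of 8, 24 and 48 h of IFN-gamma, against 24.2 to 29.9, 26.5 to 33.2 and 27.6 to 29.1 CPM in untreated ones. Cd68, Cd14 and P2ry12 were among the markers with reads in these sums. The defining markers were at or near 0: at 24 h of IFN-gamma Aif1, Tmem119, C1qa, C1qb and Trem2 had 0 reads in all 4 libraries, Cx3cr1 and Tyrobp 2 and Csf1r 6, where H2-Eb1 had 6875. The 5 B cell markers summed to 0.0469 to 0.573 CPM at 24 h of IFN-gamma, against 0.25 to 1.57 CPM in untreated libraries. Of them Cd79b, Ms4a1 and Pax5 had 0, 2 and 2 reads with IFN-gamma, against 1, 7 and 22 without, and Cd79a had 23, against 14. Zbtb46 held most of the reads of the 5 dendritic cell markers (1432 at 24 h of IFN-gamma, against 1221 in untreated cells), and Itgax and Flt3 had 6 and 11, against 23 and 22. The 5 fibroblast and meningeal markers summed to 5.59 to 8.77 CPM at 24 h of IFN-gamma, against 0.298 to 3.43 CPM in untreated libraries. There Lum held 598 reads with IFN-gamma, against 26 without, while Col1a1, Col1a2 and Dcn had 8, 9 and 5, against 22, 32 and 18. The 6 astrocyte markers summed to 412 to 458, 444 to 494 and 374 to 429 CPM at 8, 24 and 48 h of IFN-gamma, against 273 to 360, 265 to 313 and 303 to 403 CPM in untreated libraries. Of them 1, 2 and 2 were called higher at those times, where 13.1, 12.6 and 16.9% of all genes were. At 48 h 2 of them were called lower, where 19.9% of all genes were. Of 6 neuron markers 3 were called higher at 8, 24 and 48 h alike, beside the same shares of all genes. The 6 summed to 858 to 1315 CPM at 24 h of IFN-gamma, against 1179 to 1269 CPM in untreated libraries. The 6 endothelial and mural markers summed to 12.0 to 13.1 CPM at 24 h of IFN-gamma, against 6.20 to 7.46 CPM in untreated libraries. Of 3 tested 1 was called higher and 1 lower, where 12.6 and 10.5% of all genes were. The 5 T cell markers were not tested and summed to at most 0.26 CPM at 24 h of IFN-gamma, against up to 1.65 CPM in untreated libraries. In untreated 24 h cells the highest B cell, T cell and fibroblast sums each came from a single library. The median B cell sum there was 0.312 CPM, against 0.375 CPM with IFN-gamma, and the median fibroblast sum there was 0.778 CPM. Single libraries held 17 of the 23 untreated 24 h reads of Itgax and 13 of the 18 of Dcn. With reads so uneven, the lower counts in these lists do not show a fall with IFN-gamma. The part of these markers in the class II results was not tested beyond these values.

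By Pearson correlation of log2 CPM over all 40 libraries, the genes outside the 9 with the pattern most like Ciita were Mpeg1 (0.993), Gbp4 (0.992), Zbp1 (0.991), Slfn8 (0.99) and Xaf1 (0.99). Those most like H2-Aa were Gm19684 (0.988), Trim34a (0.987), Gbp8 (0.986), H2-T22 (0.986) and B2m (0.986). The 40 points share depth and fall into induced and uninduced libraries, so these values describe the order of likeness only. Mpeg1 averaged 26.8, 31.3 and 21.7 CPM at 8, 24 and 48 h of IFN-gamma, and at most 0.174 CPM in any untreated group.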

How the data were processed

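Total RNA was extracted on columns, treated with DNase and sequenced by Illumina HiSeq, per the labels' protocols. The authors deposited whole-number read counts per gene and estimated counts per transcript. STAR, featureCounts, kallisto and edgeR are named, without roles or versions, per the submitters' processing notes; build, annotation and strand use: not given in the sources used here. GENCODE M21 supplied symbols for 38872 of 39056 gene rows and matched 112029 of 112588 transcripts, by which lengths were taken.

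Groups came from the labels and columns were matched by library number. Counts were filtered (filterByExpr), TMM-scaled and fitted with 1 mean per group in edgeR 4.0.16 under R 4.3.3 (30 residual degrees of freedom, prior count 0.125), with SE as the log2 fold change over the root of F. Estimated counts were rounded and fitted likewise over 58915 transcripts. The model was also run on simulated counts, with an outcome not reported here. Its changed genes had a mean over 1 CPM, which does not cover untreated groups of a few reads. Libraries of a group differed beyond sampling noise in all 60 pairs (chi-square per degree of freedom at least 5.465). Alternatives were RLE size factors, DESeq2 1.42.0, no filter, the compared groups alone, the library number range (lower or upper 20) as a block, each range alone, the summed isoform table, 30 libraries by Y-linked level, a prior count of 2, each library left out and, added after seeing the data, 3 libraries left out. Named genes were the 9 members, in each list up to 4 called genes of largest change at 24 h with a mean of at least 1 CPM, and the 5 genes most like Ciita and H2-Aa; further genes were named after their values were seen, as were the promoter letters. Members and lists were chosen with earlier results of these data known. Some list genes are counted in sums and counts but not reported singly here.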

Additional observations from a re-analysis of the deposited data

Results flagged for a closer look

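Dixon's test was run on 54 pairs of gene and group with at least 10 reads, and chance flags about 1 in 20 groups of 4. It marked 7 single libraries. Ciita stood at 0.777 CPM in IFN-gamma 1 h replicate 3, where the other 3 libraries reached 0.101, and at 0.636 CPM in untreated 24 h replicate 4, where the others reached 0.0543. In the same untreated library H2-DMa stood at 5.09 CPM (others 4.35 to 4.46) and Rfx5 at 60.1 CPM (others 45.6 to 48.0). H2-Eb1 stood at 0.262 CPM in untreated 48 h replicate 1 (others 0.123 to 0.144). H2-DMa stood at 37.5 CPM in IFN-gamma 24 h replicate 3 (others 33.7 to 34.1), and Rfx5 at 47.7 CPM in IFN-gamma 48 h replicate 1 (others 58.5 to 60.4).

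The effect of IFN-gamma differed between times, by the interaction of the edgeR fit, in 8 cases. From 1 to 8 h the log2 fold change grew by 8.05 for Ciita, 4.72 for Cd74, 3.85 for H2-Ab1, 5.72 for H2-Eb1 and 1.74 for H2-DMa. From 8 to 24 h it grew by 2.33 for H2-Ab1, 3.17 for H2-Eb1 and 1.24 for H2-DMa. Causes of these results were not tested.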

How the results depend on the processing

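Of 14 counts of called genes, the counts for IFN-gamma against untreated cells at 1, 8, 24 and 48 h stayed within 1.5 times of the value reported under every alternative run, as did those for IFN-gamma against thapsigargin and for 8 against 1 h and 24 against 8 h of IFN-gamma. With the lower 20 library numbers alone the count was 0 for thapsigargin at 1 h, 1 for thapsigargin at 8 h, 1 for untreated cells of 48 against 1 h and 0 for the effect at 24 minus 8 h. With the upper 20 alone it was 1 for untreated cells of 48 against 1 h, 3 for the effect at 8 minus 1 h and 1 for the effect at 24 minus 8 h; each range holds 2 libraries a group. DESeq2 called 1 gene, Cd74, for 48 against 24 h of IFN-gamma. With each library left out in turn the count ran from 0 to 1 for thapsigargin at 1 h, for 48 against 24 h of IFN-gamma and for the effect at 48 minus 24 h, where H2-DMa was called without untreated 48 h replicate 2. The 57 called log2 fold changes of single genes, the only ones recomputed, kept their direction in all 1147 recomputations and their call in 1117. The 30 losses fell on Rfx5, on H2-DMa and H2-Ab1 in the ranges of 20 alone, and on the effects over time of Ciita, Cd74, H2-Eb1, H2-DMa and H2-Ab1. The effect of Cd74 at 8 minus 1 h and that of H2-Eb1 at 24 minus 8 h also lost their calls in the summed isoform table and without single untreated libraries, and that of Ciita at 8 minus 1 h without untreated 1 h replicate 1. The block for library numbers changed no call; the labels give no replicate numbers shared by groups. The shares of the 1224-base Cd74 transcript did not pass the threshold under any setting, though with 3 libraries against 4 none can. Folds against untreated groups of a few reads are limited by depth.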
